A study of Mus musculus with 11 samples.

Results

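The wells described here are single germ cells of the adult mouse testis with the highest combined level of Dlk1, Sertad4, Pramef12, Dnmt3b, Sox12 and Fkbp9, named early differentiating spermatogonia. They were chosen by measured values. For each well with at least 3000 unique molecular identifiers (UMIs, tags that mark the RNA molecules counted), the natural logarithm of 1 plus the UMIs per 10000 was averaged over the 6 genes, and the top 5% of wells by this score were taken within each mouse. This gave 62 wells of the 1228 that passed the UMI minimum and of 1920 in all, with 24 of 475 from mouse 1, 14 of 273 from mouse 2 and 24 of 480 from mouse 3. A class cut from a score is a range of wells along a scale and not in itself a cell type.

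Spermatogonia are the mitotic germ cells that line the seminiferous tubule. Undifferentiated spermatogonia, which include the stem cells, respond to retinoic acid by becoming differentiating spermatogonia, which express the receptor tyrosine kinase Kit and divide a fixed series of times before the cells enter meiosis as preleptotene spermatocytes. At the start of differentiation the germ cells are known to raise the de novo DNA methyltransferases and a first wave of Stra8, a retinoic acid target that acts again at meiotic entry.

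The series profiled live testis cells that carried green fluorescence from a Dazl-GFP reporter transgene, Dazl being a germ cell RNA-binding protein, in 3 untreated adult mice. Cells were sorted individually into wells and their polyadenylated RNA was counted by SORT-Seq, a plate method built on CEL-Seq. CEL-Seq1 was used for mouse 1, in 8 libraries with 96 wells apiece; CEL-Seq2 was used for the others, with a single library of 384 wells in mouse 2 and 2 such libraries in mouse 3. In mouse 3, 1 library came from a plain sort gate; elsewhere the fluorescence of the sorted cell was stored for each well (index sorting). Protocol and mouse cannot be told apart, since mouse 1 alone had CEL-Seq1, and the table does not separate the 8 libraries of mouse 1. The replicate is the mouse (n = 3), and each comparison was made within mice. A further 3 sets of 62 wells served for comparison, each the top 5% per mouse, among wells not yet taken, of a score built the same way. The undifferentiated-scored wells used Gfra1, Etv5, Ret, Zbtb16, Nanos3 and Upp1. The later-scored wells used Pou3f1, Crabp1, Kit, Rhox13 and Dmrtb1, genes of more advanced differentiating spermatogonia. The pachytene-scored wells used Piwil1, Ldhc, Tbpl1, Hspa2, Mybl1 and Adam2, genes of the long middle stage of meiotic prophase.

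The deposited table held 16682671, 5866174 and 18032562 UMIs for mice 1, 2 and 3. The 62 early differentiating wells were deeper than the other kept wells. The median well held 35514, 15713.5 and 31782 UMIs in mice 1, 2 and 3, against 19994, 12480 and 18141 in the other wells. The UMIs per UMI of the ERCC spike-in, which was added in a fixed amount, were also higher by 0.59 ± 0.08 (log2 of the ratio of medians, SD, n = 3; higher in 3 of 3 mice; exact sign-flip permutation test, two-sided, p = 0.25, the smallest that 3 mice allow). Against other wells matched in depth, this ERCC difference was 0.067, 0.1805 and 0.0715 in mice 1, 2 and 3. The mitochondrial share of UMIs was 4.21%, 13.7% and 12.8% in the 62 wells of mice 1, 2 and 3 and 4.52%, 10.8% and 9.33% in the other wells. The part of depth, RNA content and mitochondrial share in the differences below was not tested, except where a value with depth-matched wells is given.

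**Figure D1:**
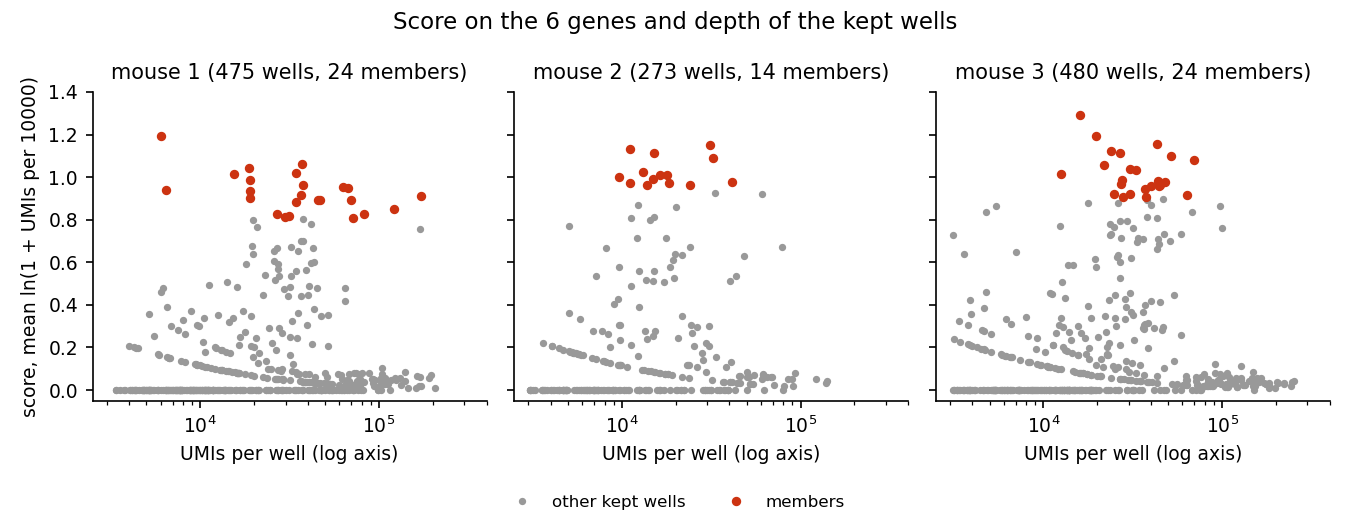
Score of each kept well (mean of ln(1 + UMIs per 10000) over the 6 genes) against the UMIs in the well (log axis), by mouse; members are the early differentiating wells. They lie at or above scores of 0.809 in mouse 1, 0.961 in mouse 2 and 0.905 in mouse 3, and the other wells form a continuous range below them.

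No gap separated the chosen wells from the rest. The lowest score among the chosen wells of mouse 1 was 0.809 and the highest outside them 0.801. In mouse 2 these values were 0.961 and 0.927, and in mouse 3 they were 0.905 and 0.9. The median chosen well scored 0.915, 1.005 and 0.984 in the 3 mice, against 0.023, 0.04 and 0.039 for the median other well. A UMI of all 6 genes was present in 48 of the 62 wells, of 5 genes in 13 wells and of 4 genes in 1 well. Among the 1166 other wells, 43 also had a UMI of all 6 genes and 501 had none. When each well was thinned to 3000 UMIs, 12 of the 62 wells kept 4 of the genes and 9 kept only 1, and choosing wells by a score computed on thinned wells kept 33 of the 62.

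The 6 genes that define the wells are described first, without a test, because their values chose the wells. Dlk1 encodes a membrane protein related to Notch ligands and is imprinted; it lies at chr12:109452485-109463336 (GRCm38.p6, RefSeq, plus strand). Its level summed over the chosen wells was 131, 163 and 183 counts per 1000000 UMIs (CPM) in mice 1, 2 and 3, against 64.8, 88.9 and 120 in the undifferentiated-scored wells and 21.3, 64.5 and 41.9 in the later-scored wells. Dlk1 was thus highest in the early differentiating wells of every mouse, with the undifferentiated-scored wells next. Pramef12 (Pramel13 in RefSeq, chr4:144391674-144408467, minus strand), a member of the PRAME family of leucine-rich repeat proteins, had another order. It reached 133, 200 and 172 CPM in the early differentiating wells and 205, 247 and 164 in the undifferentiated-scored wells, and lay between 23.1 and 46.5 in the later-scored wells. The early differentiating and undifferentiated-scored wells overlapped for Pramef12, and both stood above the later-scored wells.

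Dnmt3b, the de novo DNA methyltransferase (chr2:153649411-153687730, plus strand), was the most abundant of the 6, at 256, 296 and 351 CPM in the early differentiating wells. The undifferentiated-scored wells had 128, 83.2 and 129, and the later-scored wells 131, 283 and 208. The ranges of the early and later wells overlapped across mice, although within each mouse the early wells were higher. Sertad4, which encodes a SERTA domain protein (chr1:192844469-192855752, minus strand), stood at 197, 218 and 184 CPM and in the other 2 spermatogonial sets between 64.8 and 97.5. Sox12, an HMG-box transcription factor of the SoxC group (chr2:152393611-152398046, minus strand), had 124, 207 and 120 CPM, against 44.1 to 57.4 in the undifferentiated-scored and 51.1 to 100 in the later-scored wells. Fkbp9, a peptidyl-prolyl isomerase of the endoplasmic reticulum (chr6:56832059-56879360, plus strand), had 126, 174 and 175 CPM, against 51.6 to 85.8 and 49.7 to 89.5. For Sertad4, Sox12 and Fkbp9 the early differentiating wells lay above both other spermatogonial sets without overlap. In all other kept wells together no gene of the 6 exceeded 41.0 CPM in any mouse.

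**Figure D2:**
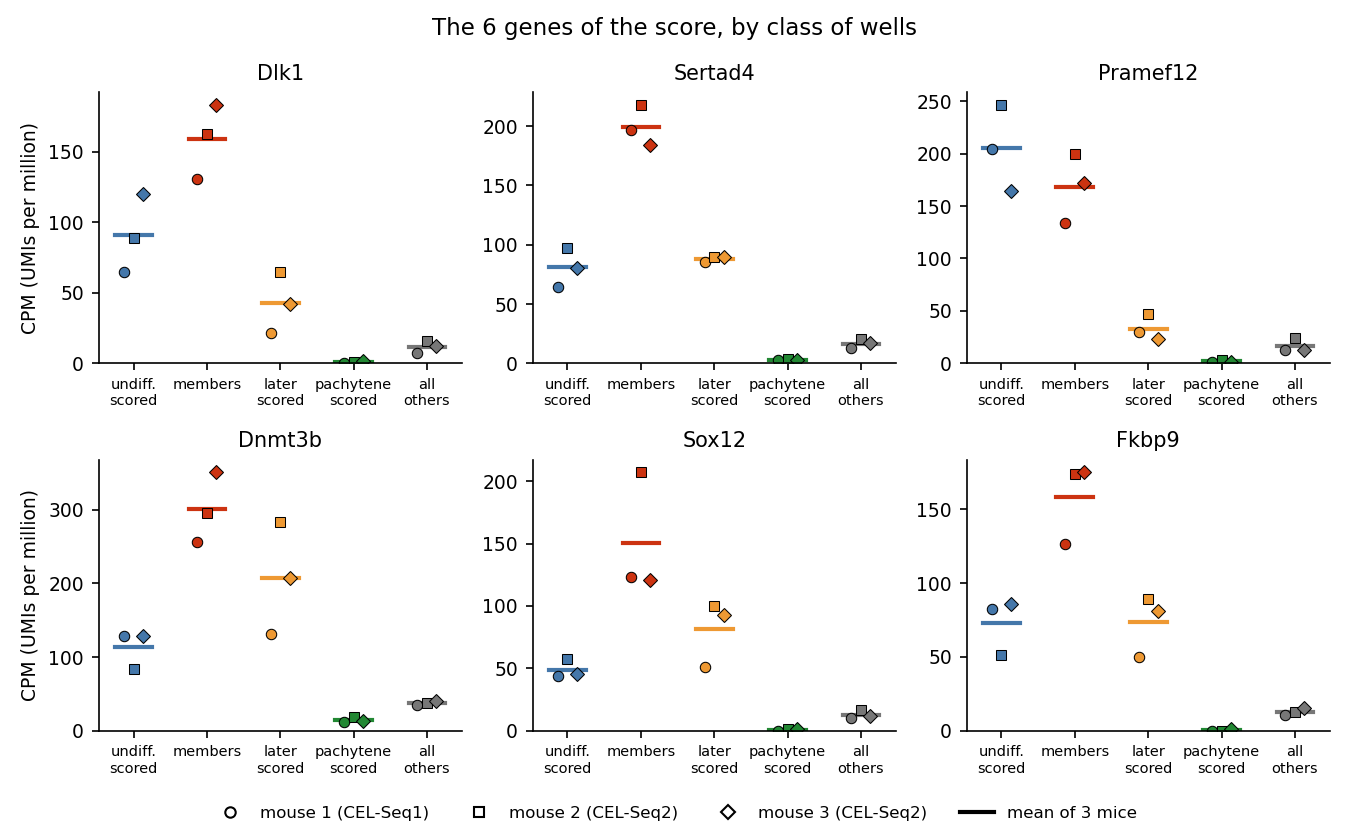
CPM of the 6 score genes (linear axis) for the undifferentiated-scored, early differentiating (members), later-scored, pachytene-scored and all other wells; symbols are the 3 mice and lines their mean. Pramef12 overlaps between the undifferentiated-scored and the early differentiating wells, and the other 5 genes are highest in the early differentiating wells of each mouse.

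Choosing the wells by 5 of the genes and reading the gene left out described how far the genes go together. Fkbp9, left out of the score, was 9.74 to 10.5 times as high in the wells so chosen as in the rest over the 3 mice, with 56 of 62 wells shared with the full choice. Dlk1 was 8.11 to 15.045 times as high. Pramef12 had the lowest value, 4.48 to 8.71 times, and Dnmt3b had 5.79 to 7.45 times. Sertad4 and Sox12 stood at 7.71 to 11.7 and 6.56 to 8.2 times. Each gene was therefore high in wells that the other 5 picked, a description with no test since the 6 genes were put together with earlier results of these wells in view.

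To show the sequence in which these genes start, the 250 bases before the annotated start are printed for the 3 score genes whose window lies outside every annotated gene, and for Kit, on which the marker check below turns. Coordinates are those of GRCm38.p6 (RefSeq), the sequences run 5′ to 3′ on the strand of the gene, and capitals mark an E-box (CANNTG, the site of basic helix-loop-helix factors) or a GC box (GGGCGG, bound by the SP family) on either strand. The windows are chr1:192855753-192856002 (minus) for Sertad4, chr2:152398047-152398296 (minus) for Sox12, chr6:56831809-56832058 (plus) for Fkbp9 and chr5:75574737-75574986 (plus) for Kit.
Sertad4: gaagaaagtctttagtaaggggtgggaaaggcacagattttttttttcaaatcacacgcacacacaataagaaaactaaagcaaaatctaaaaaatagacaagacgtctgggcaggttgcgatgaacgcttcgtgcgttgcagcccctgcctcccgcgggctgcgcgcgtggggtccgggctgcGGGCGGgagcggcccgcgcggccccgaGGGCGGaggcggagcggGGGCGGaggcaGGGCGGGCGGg
Sox12: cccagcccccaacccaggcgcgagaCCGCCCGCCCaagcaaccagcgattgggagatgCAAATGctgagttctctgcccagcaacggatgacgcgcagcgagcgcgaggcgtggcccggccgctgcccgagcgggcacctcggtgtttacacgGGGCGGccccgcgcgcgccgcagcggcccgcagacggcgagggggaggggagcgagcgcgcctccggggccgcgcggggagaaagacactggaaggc
Fkbp9: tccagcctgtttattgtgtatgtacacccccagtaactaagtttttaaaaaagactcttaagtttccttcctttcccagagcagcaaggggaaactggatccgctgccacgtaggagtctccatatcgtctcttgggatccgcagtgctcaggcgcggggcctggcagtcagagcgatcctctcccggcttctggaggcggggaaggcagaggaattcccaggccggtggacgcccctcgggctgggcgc
Kit: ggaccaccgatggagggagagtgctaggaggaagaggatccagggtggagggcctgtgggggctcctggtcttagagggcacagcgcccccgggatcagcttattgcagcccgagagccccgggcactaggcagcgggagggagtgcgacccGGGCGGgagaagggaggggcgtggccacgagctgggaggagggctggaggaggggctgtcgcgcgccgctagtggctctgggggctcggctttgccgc
Sertad4 held 5 GC boxes in its window, Sox12 held 3 and Kit held 1, whereas the Fkbp9 window held none. Sox12 alone of the 4 had an E-box, 192 bases before the start. Among 27025 RefSeq promoter windows of this length, 32.9% held a GC box and 66.0% an E-box. The windows held 25, 35, 13 and 17 CG dinucleotides for Sertad4, Sox12, Fkbp9 and Kit, against a median of 6 over all promoters. These matches describe the letters and show no binding.

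The label was checked against marker genes that the score did not use. Kit, the stem cell factor receptor that defines differentiating spermatogonia (chr5:75574987-75656722), stood at 303, 528 and 354 CPM in the early differentiating wells of mice 1, 2 and 3. In the undifferentiated-scored wells it stood at 29.4, 31.5 and 31.6, and in all other kept wells at 34.5, 71.4 and 52.4. Every mouse was thus higher in the early differentiating wells, and Kit there did not stand apart from the later-scored wells (271, 415 and 436), which were themselves chosen partly by Kit. Per well, Kit ranged from 0 to 4.83 UMIs per 10000 in mouse 1 (median 3.09), from 0 to 13.2 in mouse 2 (median 5.19) and from 0 to 7.15 in mouse 3 (median 3.15). Gfra1, the GDNF co-receptor of undifferentiated spermatogonia, had no UMI in any of the 62 wells, which allows a share of up to 4.84% of wells with a UMI, whereas 18 of the 62 undifferentiated-scored wells, chosen partly by Gfra1, had one. Kit had a UMI in 58 of the 62 early differentiating wells. The absence of Gfra1 UMIs did not set these wells apart from the later-scored wells, where it also had none in 62, and in all other kept wells it had one in 2.4%. Other undifferentiated markers were still detected. Zbtb16, a transcription factor of undifferentiated spermatogonia, had a UMI in 39 of the 62 wells (62.9%) against 12.1% of all other kept wells, 82.3% of the undifferentiated-scored and 46.8% of the later-scored wells. With every well thinned to 3000 UMIs, Zbtb16 had one in 4.8% of the early differentiating, 9.7% of the later-scored and 3.7% of all other kept wells. Ret, the GDNF receptor kinase, had one in 13 of 62 and Etv5, an ETS transcription factor, in 9 of 62. Of 6 undifferentiated markers tested (edgeR, described below), 5 were higher than in all other kept wells and Id4 was lower. Among all genes tested, 33.0% were higher and 37.5% lower.

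At equal depth Kit also separated these wells from the undifferentiated-scored wells, and not from the later-scored wells. After thinning to 3000 UMIs, a Kit UMI was found in 64.5% of the 62 wells (exact Clopper-Pearson 95% interval 51.3 to 76.3%), in 6.5% of the undifferentiated-scored and in none of the 62 pachytene-scored wells, which are taken as the background of free RNA. Without thinning these shares were 93.5%, 25.8% and 21.0%, at median depths of 30579.5 UMIs in the early differentiating and 22455.5 in the undifferentiated-scored wells. In the thinned later-scored wells, chosen partly by Kit, its share was 58.1% (44.8 to 70.5%), and in all other kept wells 15.4%. Zbtb16 was found in 4.8% of the thinned early differentiating wells (1.0 to 13.5%) and in 38.7% of the undifferentiated-scored wells, which it helped to choose. Dazl, the reporter gene, was found in 98.4% of the thinned wells. Intervals and limits for shares of wells cover counting error only.

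Kit and Stra8 were seen together in most of the wells. Both had a UMI in 56 of the 62 early differentiating wells (90.3%), against 11 undifferentiated-scored (17.7%), 39 later-scored (62.9%) and 9 pachytene-scored wells (14.5%). After thinning, both were found in 26 of 62 early differentiating wells (41.9%), in 7 later-scored (11.3%), in 2 undifferentiated-scored (3.2%) and in 0 pachytene-scored wells, which allows a share of up to 4.84%. A Kit UMI without Stra8 was the more common state of the thinned later-scored wells, at 29 of 62.

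Markers of cells outside the germ line were low, but the Leydig and endothelial sums lay above those of the other wells without overlap. Of 5 Leydig cell markers only Star had UMIs, with Insl3, Cyp17a1, Hsd3b1 and Cyp11a1 at 0, and the summed level over the list was 9.92 to 22.2 CPM by mouse, against 5.86 to 9.51 in the other wells. Of 7 Sertoli cell markers 6 had UMIs and Amh was at 0. Their sum ranged from 11.1 to 107 CPM by mouse (other wells 22.0 to 38.1), and Clu made up 63.8 of it in mouse 3, the highest mouse. Peritubular myoid (3 of 4 with a UMI, Des at 0), endothelial (3 of 3) and macrophage markers (1 of the 2 in the table, Lyz2 at 0) did not exceed 7.09, 6.31 and 3.70 CPM in any mouse. In the other wells these sums did not exceed 3.97, 3.19 and 2.38 CPM. The part of these cells' RNA in the results was not tested.

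The position of the wells among their neighbours was described from genes outside the score. With 10 neighbours per well in 10 principal components of the 1000 most variable genes, without the 6 score genes, 34.6% of the neighbours of the chosen wells in mouse 1 were chosen wells too, as were 57.1% in mouse 2 and 52.9% in mouse 3. They made up 5.05%, 5.13% and 5.0% of the kept wells. Later-scored wells contributed 19.6%, 24.3% and 12.9% of the neighbours, undifferentiated-scored wells 19.6%, 4.3% and 17.1%, and pachytene-scored wells none in any mouse. By their own scores, 5 of the 62 wells were also in the top 5% by the undifferentiated score, 9 by the later score and 0 by the pachytene score. The median percentile of the 62 wells was 85.4 by the undifferentiated, 87.2 by the later and 21.9 by the pachytene score.

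The first comparison asked how the early differentiating wells differed from all other kept wells of the same mouse. UMIs were summed per mouse, giving 3 sums for each side, and tested with edgeR's quasi-likelihood test with the mouse as a block and Benjamini-Hochberg adjustment over the genes tested, with the score genes left out. Of 8195 genes, 2706 (33.0%) were higher and 3076 (37.5%) lower at an adjusted p under 0.05. Because the wells were chosen by a score, a call does not show that the wells are a separate type. It rests on the mean difference within mice and does not require the same direction in each mouse. Ccnd2 and Sdc4, for example, were called higher but were higher in 2 of 3 mice. The transcription factor genes Lhx8 and Dlx1 led the genes that rose. Lhx8, a LIM homeobox factor, stood at 64.0, 44.4 and 63.8 CPM against 2.08, 2.93 and 3.13 (log2 fold change 4.32 ± 0.26 SE, adjusted p = 1.8e-08). Dlx1, also a homeobox factor, stood at 39.7, 51.7 and 63.8 against 2.15, 4.57 and 3.6 (3.85 ± 0.25, adjusted p = 2.8e-08). For neither gene did any mouse of the 2 sides overlap.

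Others of the 15 genes that rose most were Plxnd1, a semaphorin receptor (log2 fold change 3.49), Nes, the intermediate filament protein nestin (3.44), Epb4.1l3, which links membrane proteins to the cytoskeleton (3.25), Rab11fip4 (3.21), Pdzrn3 (3.16), Prtg, a membrane protein of the immunoglobulin family (3.13), and Fam171a1 (3.10). Asb9 (3.52) and Elf4, an ETS transcription factor (3.36), lie on the X chromosome. Kctd15 (3.39) and Phf15 (3.18) also rose. Each of these was higher in 3 of 3 mice.

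The 10 genes that fell most were all but missing from the early differentiating wells. Gstt2, a glutathione transferase, had 3.61, 0 and 1.18 CPM in the early differentiating wells against 114, 95.3 and 130 (log2 fold change -5.88 ± 0.35, adjusted p = 1.6e-08). Dnahc7a, an axonemal dynein heavy chain (-5.75), Armc3 (-5.68), Elfn2 (-5.66) and Cd177 (-5.16) fell in 3 of 3 mice as well. Cd177 stood at 168.6, 9.148 and 11.04 CPM elsewhere in mice 1, 2 and 3, against 4.508, 3.696 and 0. It had 6 UMIs in the 62 wells, and its fold change rested mainly on mouse 1. Dnahc7a was also highest elsewhere in mouse 1, at 264.6 CPM against 46.65 and 40.91 in mice 2 and 3. C2cd4b had 2 UMIs in the 62 wells and 3583 elsewhere, a level 106 times as high elsewhere (counting interval 29.2 to 872). Riiad1 had 1 UMI against 1536 (90.5 times, 16.2 to 3580). Fbxw10 (41.1 times, 14 to 199), Ubr1, a ubiquitin ligase (38.7 times, 13.2 to 188), and Tcp10a (38.8 times, 13.2 to 188) had 3 UMIs each. Tcp10a has near-identical copies, so its count is uncertain. Its level elsewhere was 123, 4.39 and 3.31 CPM in mice 1, 2 and 3, so its ratio rested mainly on mouse 1. Without the mouse as a block Tcp10a (edgeR, adjusted p = 0.09) and Cd177 (adjusted p = 0.0628) lost their calls.

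Markers of meiotic stages were mostly lower and markers of spermatogonia mostly higher than in the other wells. The counts below stand beside 33.0% of all genes higher and 37.5% lower. Of 9 pachytene markers tested, 9 fell and none rose, with a median log2 fold change of -3.81 against -0.05 over all genes tested; Ldhc, the sperm lactate dehydrogenase, stood at 59.5, 126 and 201 CPM against 1261, 1749 and 2732 (-4.16 ± 0.15, adjusted p = 1.8e-09). Of 11 preleptotene and leptotene markers, 9 fell and 2 rose. Among those that fell, Sycp3 (-1.77), Sycp1 (-2.07), both of the synaptonemal complex, and Hormad1 of the chromosome axis (-3.13) were still present, Sycp3 at 328, 495 and 445 CPM. Of 11 differentiating spermatogonia markers, 9 rose and 1 fell, with a median of 2.33. Kit rose by 2.76 ± 0.14 (log2, adjusted p = 8.7e-09), Crabp1, the cytosolic retinoic acid-binding protein, by 2.82, and Dmrtb1, a factor of the mitosis-to-meiosis switch, fell by 0.85. Of 6 undifferentiated markers, 5 rose and Id4, an inhibitor of helix-loop-helix factors, fell by 4.07, with 241, 224 and 277 CPM in the other wells. With other wells matched to the chosen wells in depth, 1373 genes were higher and 1500 lower in place of 2706 and 3076.

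The second comparison set the wells against the 62 undifferentiated-scored wells, taken as the stage before. That set was mixed: a well of mouse 1 in it scored 0.155 by the undifferentiated and 0.859 by the later score. Of 8094 genes, 918 (11.3%) were higher and 971 (12.0%) lower. The largest increases included Tbx1, a T-box transcription factor (36.1, 62.8 and 74.4 CPM against 0, 2.87 and 3.79; log2 fold change 4.63 ± 0.50, adjusted p = 3.5e-06), and Kit (3.58 ± 0.18, adjusted p = 2.5e-10). Cited1, a transcriptional co-regulator on the X chromosome, stood at 259, 270 and 343 CPM against 36.8, 28.7 and 45.4 (2.94 ± 0.17, adjusted p = 3.1e-09). Plk5 (3.81), Dlx1 (3.36), Pcsk1n, an inhibitor of proprotein convertases (2.89), and Vegfb, a vascular growth factor (2.71), rose as well. Each of these genes was higher in 3 of 3 mice without overlap between the sets.

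The genes with the largest decreases from the undifferentiated-scored wells included Nid1, Nefm and Egr2. Nid1, a basement membrane protein, had 2 UMIs against 128 (78.2 times as high in the undifferentiated-scored wells, counting interval 21.2 to 653), Nefm, a neurofilament subunit, 2 against 90 (55.0 times, 14.8 to 461), and Egr2, an immediate early transcription factor, 3 against 99 (40.3 times, 13.4 to 199). Cdkn1b, an inhibitor of cyclin-dependent kinases, stood at 4.51, 3.70 and 2.36 CPM against 58.9, 74.5 and 48.0 (log2 fold change -3.91 ± 0.42, adjusted p = 3.4e-06). Osbpl3 (-4.47), Lrp1, an endocytic receptor (-4.19), Pcp4l1 (-4.14) and Gbp2, an interferon-induced GTPase (-4.09), also fell. Of 5 undifferentiated markers outside the score that were tested, 5 fell, beside 12.0% of all genes (median -1.04, against 0.02 over all genes tested). They were Sdc4, a heparan sulfate proteoglycan (58.6, 22.2 and 85.1 CPM against 403, 585 and 424; -2.82 ± 0.21, adjusted p = 6e-08), Id4 (-2.37), Sall4, a zinc finger factor (-1.04), Lin28a, a repressor of let-7 microRNAs (-0.92), and Foxo1 (-0.61). They fell but were not absent, since Foxo1 still stood at 280, 329 and 363 CPM. DESeq2 called 4 of 5 markers of this list lower, and edgeR without the mouse as a block 2 of 5. With a score on thinned wells edgeR called 2 of 5 lower, and with the top 10% of wells 1 of 5 higher and 1 lower. It called 6 of 6 lower with deposited reads and 7 of 8 with the top 2.5%.

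Of 11 differentiating markers tested against the undifferentiated-scored wells, 7 rose, 3 fell and 1 did not pass, beside 11.3% of all genes higher and 12.0% lower. DESeq2 called 4 of the 11 higher and 1 lower, and edgeR with a score on thinned wells 3 higher and 1 lower. Dmrtb1 rose by 2.25, Stra8 by 1.82 ± 0.12 (adjusted p = 1.1e-08), Crabp1 by 1.81, Rhox13, an X-linked homeobox gene, by 1.18, Sohlh2 by 0.91 and Pou3f1 by 0.64 on the log2 scale, beside Kit. Sohlh1, the helix-loop-helix partner of Sohlh2, moved the other way, at 104, 144 and 129 CPM against 169, 178 and 177 (-0.51 ± 0.15, adjusted p = 0.023), as did Prtg (-0.45) and Ccnd2 (-2.21). Dmrt1 did not pass (0.27 ± 0.11, adjusted p = 0.075). The sum over Sertoli markers was 108 to 135 CPM in the undifferentiated-scored wells, above the 11.1 to 107 of the early differentiating wells; its part in the difference was not tested.

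This comparison depended on how far the sets reached. With the top 10% of wells in each set, 20 of 61 genes named here as called and tested again turned direction. They were Cdkn1b, Sohlh1, Lin28a, Sall4, Foxo1, Dmrtb1, Rhox13, Prtg, Pcna, Ccne1, Ccne2, Rarg, Sox3, Sox4, Lamb1, F11r, Egr4, Vegfb, Gbp2 and Dazl. With a score on thinned wells 19 of 63 kept their call. Cited1, Crabp1, Egr2, Grb10, Kit, Osbpl3, Pdk1 and Stra8 were among those that kept their call under each of the 15 alternatives in which they were tested (Egr2 and Osbpl3 were tested in 14), and DESeq2 called 145 genes higher and 290 lower.

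The third comparison set the wells against the 62 later-scored wells, taken as the stage after. Of 7780 genes, 625 (8.03%) were higher and 649 (8.34%) lower. Ddx3x, an X-linked RNA helicase, had the largest increase, at 52.3, 59.1 and 83.9 CPM against 2.84, 0 and 2.89 (log2 fold change 4.68 ± 0.49, adjusted p = 2.6e-13); it has near-identical copies, so its count is uncertain. Sdc4 followed (4.33 ± 0.48, adjusted p = 3.2e-12), at 1.42, 0 and 5.77 CPM in the later-scored wells. Xpot, the exportin of transfer RNAs, stood at 83.0, 85.0 and 106 against 7.09, 7.16 and 24.5 (2.70 ± 0.31, adjusted p = 9.4e-12). Ndufb11, a subunit of respiratory complex I on the X chromosome (2.91), Ppp1r18 (2.81), Hivep2 (2.81), Ccnd2 (2.81) and Chd7, a chromatin remodeller (2.78), rose too. These genes were higher in the early differentiating wells of 3 of 3 mice.

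Esx1, an X-linked homeobox gene, was the gene most clearly lower than in the later-scored wells, at 30.7, 14.8 and 49.6 CPM against 246, 204 and 196 (-2.66 ± 0.20, adjusted p = 2.1e-21). Prss50, a testis serine protease (-2.58), Sgcb (-2.45), Pdk2, a pyruvate dehydrogenase kinase (-2.22), Pias3 (-2.12), Syt7 (-2.04) and Ap1s3 (-2.01) fell as well. So did Prm1, the protamine of spermatid chromatin (-2.14), beside a summed spermatid marker level of 10.8 to 60.3 CPM in the early differentiating and 52.0 to 118 in the later-scored wells. Of 5 undifferentiated markers, 4 were higher than in the later-scored wells, Sdc4 with Lin28a (1.81), Sall4 (1.07) and Foxo1 (0.82), and Zbtb16 did not pass. Of 6 differentiating markers outside the later score, 5 were higher, namely Stra8, Ccnd2, Prtg (2.42), Sohlh2 (1.19) and Sohlh1 (0.70), and Dmrt1 did not pass (0.00 ± 0.13). Among all genes, 8.03% were higher and 8.34% lower. Without the mouse as a block 1 gene was higher and 0 lower (edgeR; 571 higher and 498 lower at an unadjusted p under 0.05), and DESeq2 called 74 higher and 36 lower. Without mouse 1, 125 genes were higher and 70 lower. Chd7, Ddx3x, Esx1, Mki67, Ndufb11, Piwil2, Plk1, Prtg, Sdc4 and Xpot kept their call under every alternative that kept the block and in which they were tested (Sdc4 was not tested in 1 of these).

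**Figure D3:**
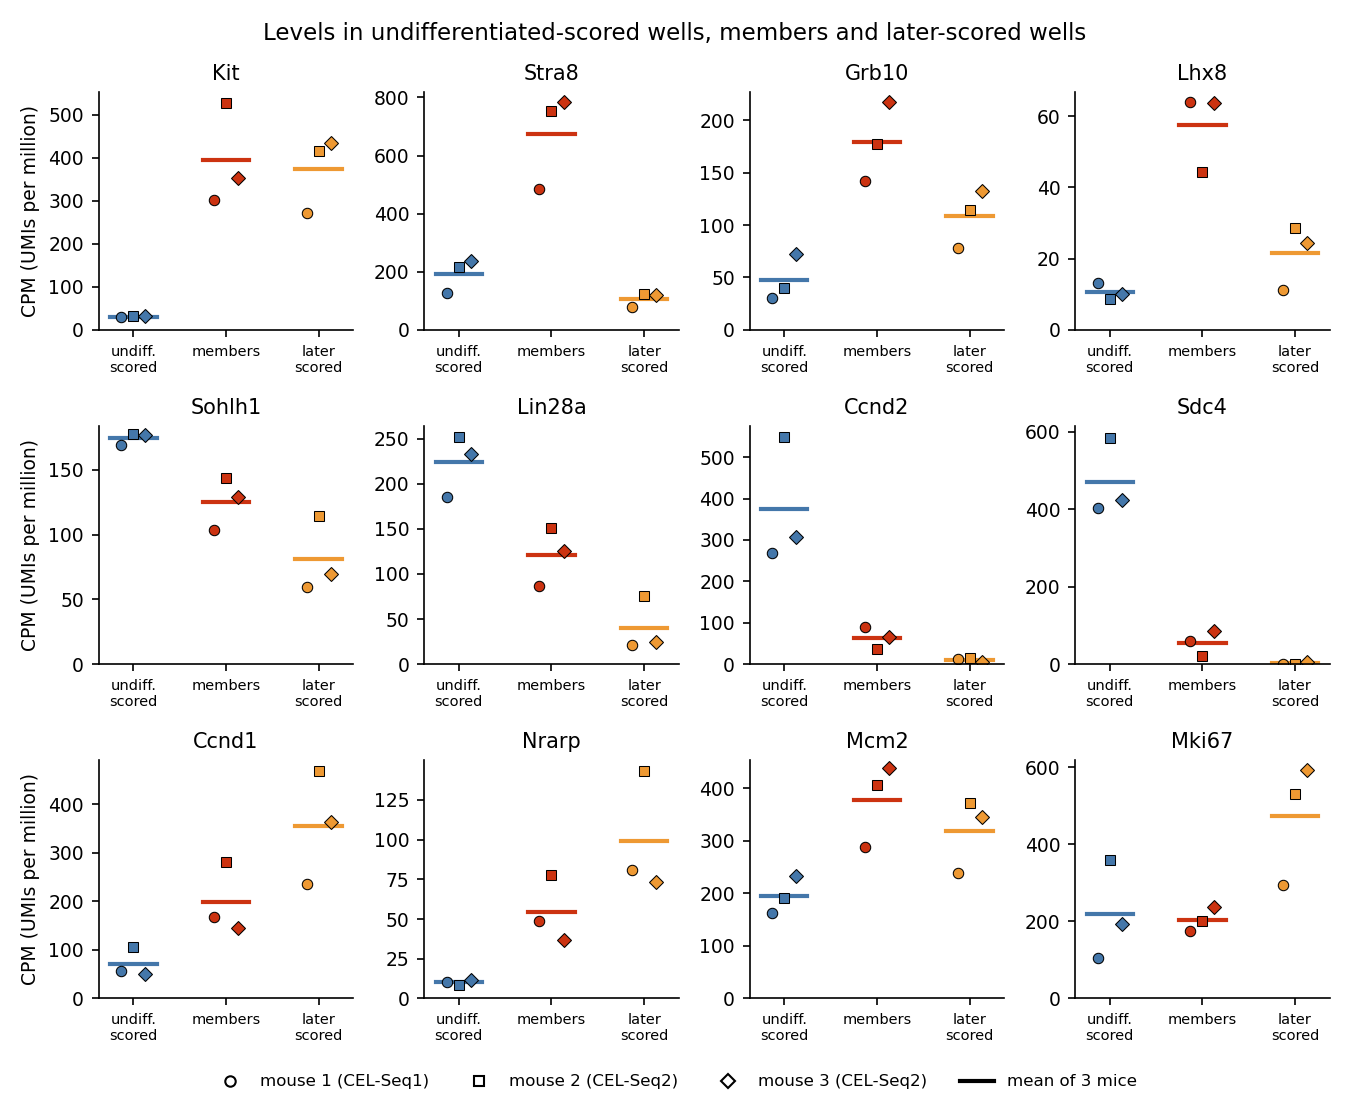
CPM of 12 genes (linear axis) in the undifferentiated-scored, early differentiating (members) and later-scored wells; symbols are the 3 mice and lines their mean. Stra8, Lhx8 and Grb10 are highest in the early differentiating wells, Sdc4 and Ccnd2 are lower in each set than in the set before, and Ccnd1 is higher.

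Set side by side with both neighbouring sets, 7486 genes were tested in both comparisons, which share the early differentiating wells. Genes that passed as higher than both numbered 85 (1.14%), with Stra8 and Lhx8 among the leading genes, and genes lower than both numbered 40 (0.53%). Stra8 (chr6:34920163-34939344, plus strand) was the most abundant of the first group, at 485, 754 and 783 CPM in the early differentiating wells, 127, 215 and 237 in the undifferentiated-scored and 78.0, 125 and 120 in the later-scored wells. No mouse overlapped, and the difference from the later-scored wells was 2.64 ± 0.15 on the log2 scale (adjusted p = 1.7e-30). With the score computed on thinned wells that difference was 0.37 (adjusted p = 0.17) and no longer passed. Per well, Stra8 ranged from 0 to 17.1, 15.7 and 17.7 UMIs per 10000 in the 3 mice (lowest 0.89 in mouse 2), with medians of 5.74, 7.91 and 5.74, so a few wells without Stra8 stood beside wells with high levels.

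Lhx8 was higher than both (log2 fold changes 2.44, adjusted p = 2.6e-05, and 1.59, adjusted p = 7.9e-05), as were Dlx1 (3.36 and 1.18), Pmepa1, a regulator of TGF-beta signalling (1.77 and 1.12), and Plxnd1 (1.4 and 1.21). With the score on thinned wells, the calls of Lhx8, Dlx1, Pmepa1 and Plxnd1 were lost against both sets (Dlx1 1.22, adjusted p = 0.104, and Lhx8 1.34, adjusted p = 0.069, against the undifferentiated-scored wells by edgeR). DESeq2 did not call any of the 4 against the later-scored wells, nor Plxnd1 against the undifferentiated-scored wells. Plxnd1 turned to -0.27 with the top 2.5% of wells. Mycn, a proto-oncogene of stem and progenitor cells, was lower than both, at 49.6, 59.1 and 53.2 CPM against 102, 91.8 and 93.4 and against 78.0, 104 and 107.

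Genes that changed in the same direction along the 3 sets were more numerous. Lower than in undifferentiated-scored and higher than in later-scored wells were 164 genes (2.19%), with Sdc4, Ccnd2, Lamb1, a laminin subunit (-2.02 and 2.57), F11r, a junctional adhesion molecule (-1.66 and 2.47), Pdk1 (-1.93 and 1.63) and Egr4, an immediate early factor (-2.43 and 1.45). The opposite order was found for 90 genes (1.2%). The 2 D-type cyclins crossed in this way. Ccnd2 stood at 268, 548 and 308 CPM in the undifferentiated-scored, 89.3, 37.0 and 65.0 in the early differentiating and 12.8, 14.3 and 4.33 in the later-scored wells. Ccnd1 stood at 55.9, 106 and 49.2, then at 168, 281 and 145, then at 236, 469 and 362, with differences of 1.53 ± 0.17 (adjusted p = 6.6e-06) and -0.88 ± 0.14 (adjusted p = 4.4e-07). Nrarp, a feedback inhibitor of Notch signalling, followed Ccnd1 (2.22 and -0.89).

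Cell cycle genes differed by phase. Of 12 S phase genes, 10 were higher than in the undifferentiated-scored wells and none lower (median log2 fold change 0.63, against 0.02 over all genes tested), beside the 11.3% of all genes called higher. The helicase subunit Mcm2 stood at 288, 406 and 440 CPM against 162, 192 and 232 (0.93 ± 0.12, adjusted p = 2.8e-05), and Mcm4 (0.86), the clamp Pcna (0.68) and the licensing factor Cdc6 (1.38) rose too. Against the later-scored wells none of the 12 was higher and 3 were lower, with Mcm2 at 0.24 ± 0.13 (adjusted p = 0.21), Pcna at -0.41 and Rrm2, a ribonucleotide reductase subunit, at -1.25. DESeq2 called 3 of the 12 higher than in the undifferentiated-scored wells, and with a score on thinned wells edgeR called none in either direction.

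Of 12 G2 and M phase genes, none passed against the undifferentiated-scored wells by edgeR or DESeq2 (1 at an unadjusted p under 0.05), and 10 were lower than in the later-scored wells (median -0.85, against -0.02 over all genes tested; 8.34% of all genes were lower). The proliferation marker Mki67 stood at 176, 200 and 236 CPM in the early differentiating and 294, 530 and 593 in the later-scored wells (-1.15 ± 0.14, adjusted p = 3.9e-11). Plk1, a mitotic kinase, fell by 1.57, Cdc20, an activator of the anaphase-promoting complex, by 1.02, Cenpa, the centromeric histone, by 1.00 and Ccna2 by 0.82 on the log2 scale. DESeq2 called 5 of the 12 lower, and edgeR with a score on thinned wells 3. Among 9 G1 cyclins, kinases and inhibitors, 4 were higher than in the undifferentiated-scored wells, Ccnd1 with Ccne1 (1.22), Ccne2 (1.54) and Cdk2 (1.00), and 3 lower, Ccnd2 with Cdkn1b and Cdk4 (-0.91). Of all genes, 11.3% were higher and 12.0% lower. DESeq2 called 2 of the 9 higher and 3 lower. Without the mouse as a block edgeR called 0 of the 9 higher and 2 lower. With a score on thinned wells it called 0 of 10 higher and 2 lower. Cdk6 was higher than in all other wells (2.72, adjusted p = 4.2e-07) and passed neither test between spermatogonial sets (0.68 and 0.65).

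**Figure D4:**
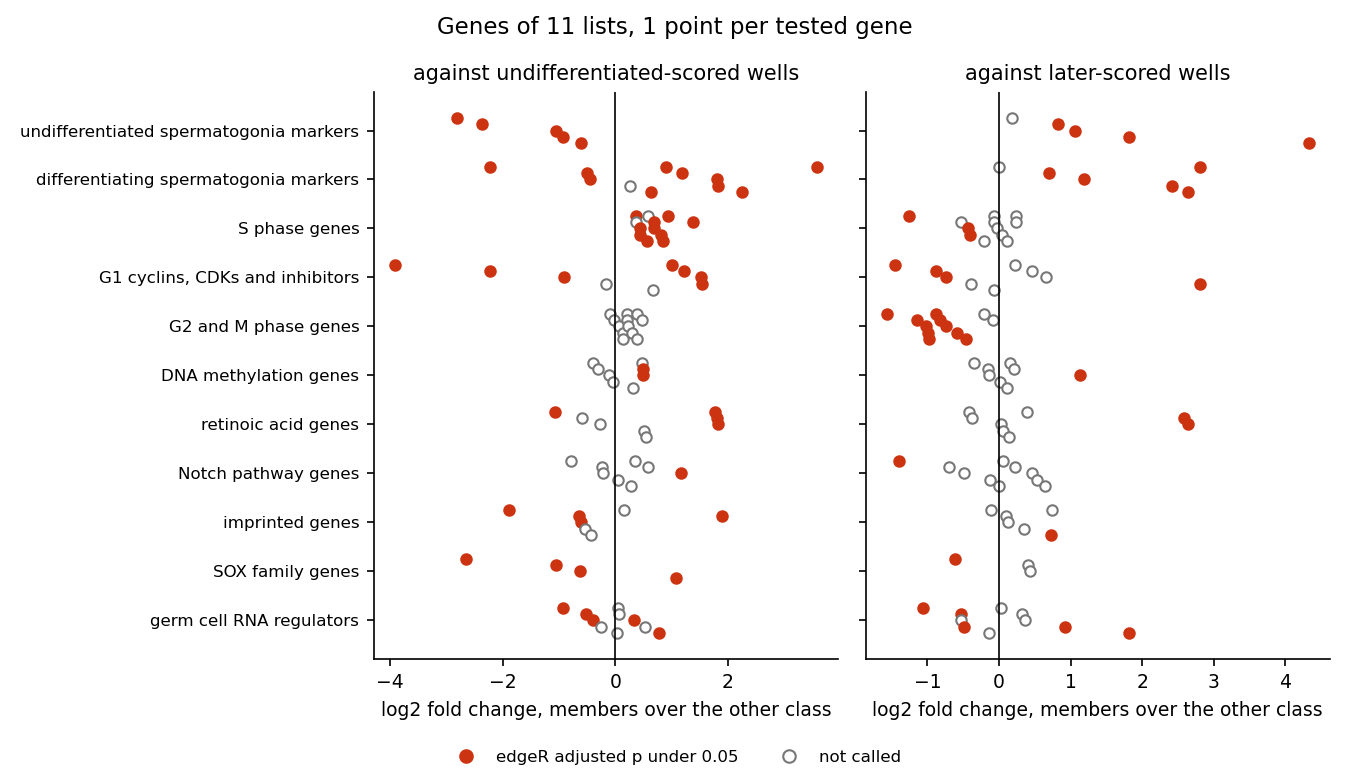
Log2 fold changes (early differentiating wells, called members, over the other set; edgeR) of the tested genes of 11 lists against undifferentiated-scored and later-scored wells, with 1 point per gene; filled points passed an adjusted p of 0.05. The 12 S phase genes lie above 0 against undifferentiated-scored wells, and the 12 G2 and M phase genes below 0 against later-scored wells, 10 of them called.

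Beside Dnmt3b, which helped to choose the wells, 8 other DNA methylation genes were tested. Against all other wells 5 were higher and 2 lower, beside 33.0% and 37.5% of all genes, with the de novo enzyme Dnmt3a at 1.74 ± 0.14 (adjusted p = 1.7e-07), the maintenance enzyme Dnmt1 at 1.24 and the dioxygenase Tet3 at 2.14. Against the undifferentiated-scored wells, Dnmt1 (231, 292 and 319 CPM against 138, 221 and 252; 0.50 ± 0.14, adjusted p = 0.013) and its partner Uhrf1 (0.50) were higher, and Dnmt3a did not pass (-0.31 ± 0.13, adjusted p = 0.083). Against the later-scored wells the methyl-CpG reader Mbd2 alone was higher (1.14). Dnmt3l, the cofactor of the de novo enzymes in fetal germ cells, had a UMI in mouse 3 alone (1.18 CPM), too few to test. DESeq2 called none of the 8 against either spermatogonial set (4 at an unadjusted p under 0.05 against the undifferentiated-scored wells by edgeR and 1 against the later-scored wells).

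Of 8 retinoic acid genes, 6 were higher and 1, the synthesis enzyme Aldh1a2 (-1.51), lower than in all other wells (median 1.95, against -0.05 over all genes tested). Among all genes, 33.0% were higher and 37.5% lower. Against the undifferentiated-scored wells, Stra8 and Crabp1 were higher and the receptor Rarg lower (23.4, 22.2 and 37.8 CPM against 61.8, 63.1 and 58.0; -1.06 ± 0.27, adjusted p = 0.008). Against the later-scored wells Stra8 was higher. The receptors Rara (41.0 ± 9.63 CPM, SD, n = 3), Rxra (57.7 ± 14.04) and Rxrb (50.1 ± 26.2) passed neither test between spermatogonial sets. Thus the retinoic acid-binding protein Crabp1 and the target Stra8 were higher than in the undifferentiated-scored wells in 3 of 3 mice, and no receptor passed as higher.

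Of 10 Notch pathway genes tested against all other wells, 5 were higher (33.0% of all genes were), including the targets Hes1 (2.48) and Hey1 (2.39). Against the later-scored wells none of 10 was higher (8.03% of all genes were) and the ligand Jag2 alone was lower (-1.40, adjusted p = 0.00059; 8.34% of all genes were lower). DESeq2 called none of the 10 against the later-scored wells (4 at an unadjusted p under 0.05 by edgeR). Among imprinted genes other than Dlk1, Grb10, an adaptor that restrains growth factor receptors, stood at 142, 177 and 217 CPM against 30.9, 40.1 and 71.9 in the undifferentiated-scored wells (1.89 ± 0.20, adjusted p = 2.5e-06) and 78.0, 115 and 133 in the later-scored wells (0.73 ± 0.16, adjusted p = 0.0004). By DESeq2, or without the mouse as a block, 0 of 6 imprinted genes tested were called higher than in the later-scored wells. The same held with deposited reads, the top 2.5% of wells and a score on thinned wells, so Grb10 was not called there. H19 (-0.60), Igf2r (-0.65) and Cdkn1c (-1.88) were lower than in the undifferentiated-scored wells by edgeR. DESeq2 called 1 of the 7 imprinted genes tested lower, and edgeR without the block or with a score on thinned wells 0. The genes that neighbour Dlk1 on chromosome 12 were near the floor, with Meg3 at 7.21, 3.70 and 4.73 CPM and Rtl1 at 2.71, 0 and 0.

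Sox11 and Sox4 are the SoxC relatives of Sox12. By edgeR, Sox11 was higher than in the undifferentiated-scored wells (1.07) and lower than in the later-scored wells (-0.62), and Sox4 was lower than in the undifferentiated-scored wells (-1.06). Sox3, an X-linked gene needed for spermatogonial differentiation, stood at 109, 166 and 158 CPM against 121, 293 and 293 (-0.62, adjusted p = 0.0099), and Sox13 fell by 2.65. Of the 4 SOX genes tested against the undifferentiated-scored wells DESeq2 called 0 higher and 1 lower, Sox4, and of 3 tested against the later-scored wells it called none (2 had an unadjusted p under 0.05 by edgeR). Of 10 germ cell RNA regulators, 2 were higher and 3 lower than in the undifferentiated-scored wells, beside 11.3% and 12.0% of all genes, and DESeq2 called 0 higher and 1 lower (7 of the 10 had an unadjusted p under 0.05 by edgeR). By edgeR Lin28a fell while Lin28b rose by 0.79 (adjusted p = 0.039) and Dazl by 0.33 (adjusted p = 0.0084). Against the later-scored wells, the piRNA pathway protein Piwil2 was higher, at 338, 492 and 541 CPM against 172, 304 and 256 (0.93 ± 0.14, adjusted p = 5.3e-08), and the meiotic entry factor Ythdc2 (-1.06) and the neuronal-type RNA binder Elavl2 (-0.53) were lower.

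The series was titled around the order in which sex chromosome genes change at meiotic entry, so the X share of the wells was measured. X-linked UMIs numbered 2.69, 2.37 and 2.26 per 100 autosomal UMIs in the early differentiating wells of mice 1, 2 and 3. The other kept wells had 1.02, 1.13 and 0.743, and the pachytene-scored wells, in which the sex chromosomes are known to be silenced, 0.202, 0.110 and 0.0825. The early differentiating wells were higher than the other wells in 3 of 3 mice, by 1.36 ± 0.27 (log2, SD, n = 3; exact sign-flip permutation test, two-sided, p = 0.25, the smallest that 3 mice allow). Against other wells matched in depth, the X share difference was 1.696, 0.7375 and 0.7097 in mice 1, 2 and 3. The undifferentiated-scored wells had 2.81, 2.42 and 2.36 and the later-scored wells 2.68, 2.43 and 2.31. The differences from them were -0.05 ± 0.01 (lower in 3 of 3 mice, exact p = 0.25) and -0.02 ± 0.02 (exact p = 0.5).

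**Figure D5:**
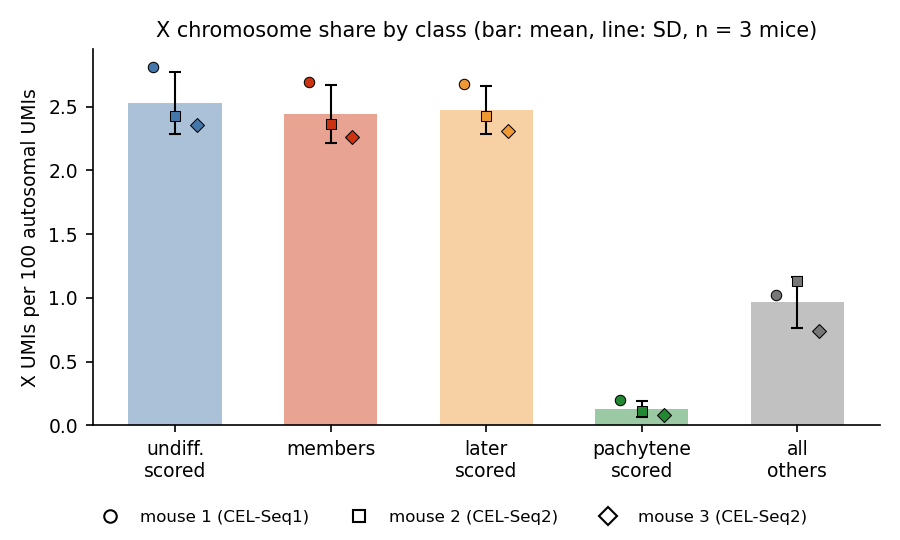
X-linked UMIs per 100 autosomal UMIs for the 5 sets of wells (members are the early differentiating wells); symbols are the 3 mice, bars their mean and lines the SD. The early differentiating wells (2.26 to 2.69) lie with the other spermatogonial sets and above all other kept wells (0.743 to 1.13) and the pachytene-scored wells (0.0825 to 0.202).

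Gene by gene, 167 of 199 X-linked genes tested were higher than in all other wells (83.9%) and 9 lower (4.5%), against 31.7% and 38.4% of autosomal genes. Against the undifferentiated-scored wells 36 of 259 X-linked genes were higher (13.9%) and 44 lower (17.0%), against 11.3% and 11.9% of autosomal genes. Against the later-scored wells 18 of 247 were higher (7.3%) and 32 lower (13%), against 8.1% and 8.2% of autosomal genes. The X-linked genes that differed between the spermatogonial sets went both ways, with Cited1 and Pcsk1n higher than in the undifferentiated-scored wells, Sox3 lower, Ddx3x and Ndufb11 higher than in the later-scored wells and Esx1 lower. Y-linked UMIs numbered 0.161 ± 0.057 per 100 autosomal UMIs in the early differentiating wells and 0.0528 ± 0.0178 in the other wells (SD, n = 3).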

How the data were processed

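Single cells of 3 mice were measured by SORT-Seq. The authors deposited UMI counts and read counts per gene and well as whole numbers, not normalized, and a table of transcripts that was not used here, since its columns for mouse 1 did not match the UMI table (median correlation per well 0.447, against 1.0 in mice 2 and 3). Per the submitters' processing notes, BWA 0.7.10 and the mm10 build were used; the counting tool and annotation are not given in the sources used here. The 85 ERCC and 37 mitochondrial rows, the reporter and the Rn45s row were dropped, and wells with at least 3000 UMIs were kept; 0 columns belonged to another series. No doublet caller was run, since cells were sorted individually into wells. No pair of wells held identical values. UMI counts of mouse 1 did not exceed 256 per gene and well, against 2295 or more in the libraries of the other mice, so abundant genes may be compressed there. Wells were not assumed to be independent samples: UMIs were summed per mouse and set of wells and tested with edgeR 4.0.16 (TMM scaling, quasi-likelihood test, mouse as a block, limma 3.58.1, R 4.3.3) on genes with a mean of at least 20 CPM over the sums, with the genes of the scores left out and Benjamini-Hochberg adjustment at 0.05. Adjusted p-values rest on a spread of the difference within mice that edgeR moderates toward a trend shared across genes. A very small value therefore does not measure how little that gene varied over the 3 mice. Differences in level between mice were taken out by the block. The sums of a mouse deviate together from the means of the sets (r = 0.909, 0.647 and 0.811 for mice 1, 2 and 3 over 8195 genes), and both sets compared come from the same animals. The tables were handled with Python 3.11.15, pandas 2.3.3 and numpy 2.4.6, and the edgeR step was tested on simulated data.

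Named genes are the 15 largest and 10 smallest fold changes against all other wells, and the 8 largest and 8 smallest against each spermatogonial set, among those called, with the same direction in 3 mice and at least 20 UMIs in the higher set, beside genes of lists; Lamb1, F11r, Pdk1, Pmepa1, Mycn, Nrarp and Egr4 were chosen after their values were seen. The members, the lists and the tests were chosen with earlier results of these data known. Alternatives were DESeq2 1.42.0, median-ratio size factors, no filter, no block, deposited read counts, another UMI minimum (1000), the top 2.5% or 10%, a score on thinned wells, depth-matched other wells, each mouse left out, and the gate-sorted library left out. Added after seeing the data were 2 more, without wells in the top 5% of another score and without the deepest chosen well of mouse 1 (171433 UMIs, 15.5% of that mouse's sum). A few results that these rules name are not reported here.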

Additional observations from a re-analysis of the deposited data

Results flagged for a closer look

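Wells under the UMI minimum were outside every comparison, and the 6 score genes were still seen there. The 692 wells with fewer than 3000 UMIs held 62 UMIs of the 6 genes among 594526 UMIs, or 104 CPM, which is above the limit that a count of 0 allows. The early differentiating wells had 1085 CPM and the other kept wells 104 CPM. Of the 692 wells, 1 had a score above the lowest chosen well of its mouse, in mouse 1.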

How the results depend on the processing

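Against all other wells, 43 of the 49 genes named as called kept their call under every one of the 16 alternatives in which they were tested (42 to 49 were tested in each), and none turned direction. Without the low-count filter 4878 genes were lower, and with depth-matched other wells 1373 were higher and 1500 lower. With a mouse left out, 2472 to 2733 genes were higher and 2315 to 3092 lower. The X share difference was then 1.23 to 1.502 and the ERCC ratio 0.56 to 0.63 (log2). With depth-matched other wells the X share difference was 1.696, 0.7375 and 0.7097 in mice 1, 2 and 3. The ERCC ratio was then 0.067, 0.1805 and 0.0715. The ERCC ratio was 0.918 with wells of 1000 UMIs or more, 0.427 with the top 2.5%, 0.391 with a score on thinned wells and 0.784 without the gate-sorted library. The cause of these and the following shifts was not tested.

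The comparisons with spermatogonial sets depended more on the processing. Against undifferentiated-scored wells, the genes higher and lower numbered 145 and 290 by DESeq2, 68 and 155 with no replicate block, 263 and 382 with deposited reads, 414 and 568 with the top 10% and 59 and 108 with a score on thinned wells; 601 were higher without the gate-sorted library. With a mouse left out 571 to 977 were higher, 571 without mouse 1 and 609 without mouse 3, and 706 to 1015 lower. Against later-scored wells they numbered 74 and 36 by DESeq2, 1 and 0 with no replicate block, 72 and 43 with deposited reads, 270 and 203 with the top 2.5%, 1471 and 1450 with the top 10%, 292 and 203 with a score on thinned wells and 305 and 301 without the gate-sorted library. With a mouse left out 125 to 659 were higher and 70 to 670 lower, with 263 and 252 without mouse 3 and the lowest counts without mouse 1. Of 1889 calls against undifferentiated-scored wells, 1884 had the same sign by DESeq2, but 1244 of the 1799 tested with the top 10% and 1746 of 1843 with a score on thinned wells; of 1274 against later-scored wells 1270 had it by DESeq2 and 1187 of 1260 with a score on thinned wells.

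With the top 10%, log2 fold changes against undifferentiated-scored wells turned for Vegfb (-0.083), Gbp2 (0.17), Cdkn1b (0.47), Sohlh1 (0.74), Lin28a (1.17), Sall4 (0.34), Foxo1 (0.53), Pcna (-0.12), Ccne1 (-0.12), Ccne2 (-0.71), Dnmt3a (0.48), Rarg (0.27), Sox3 (0.63), Sox4 (0.053), Egr4 (0.17), Prtg (1.03), Lamb1 (0.39), F11r (0.29), Dmrtb1 (-0.38), Rhox13 (-0.75), Dazl (-0.035) and Mki67 (-0.67). With a score on thinned wells they turned for Rarg (0.15), Mycn (0.025) and Lin28b (-0.036). Against later-scored wells Plxnd1 turned with the top 2.5% (-0.27). Without wells in the top 5% of another score, and without the deepest chosen well of mouse 1, no count moved by over 1.5 times.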
